A study of Arabidopsis thaliana with 14 samples.

Results

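The embryo proper of Arabidopsis thaliana seeds was compared with the other 5 compartments cut from the same stage of seed. The embryo proper is the part of the embryo that forms the shoot, the root and the cotyledons, without the suspensor. Its members were the 2 arrays whose titles name it, of 14 arrays in all. They were set against 10 arrays, 2 each of micropylar, cellularized and chalazal endosperm and of chalazal and general seed coat. The 2 arrays of whole seeds stood outside the contrast and are given beside it.

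All groups were wild-type plants of ecotype Ws-0 with no treatment, grown at 20 °C under continuous light. Plants were 38 to 46 days old, siliques measured 1.6 to 1.9 cm, and the embryos, at the linear-cotyledon stage, were 175 ± 11 µm long. Tissue was fixed, embedded in paraffin and cut from sections with a laser, and 2 to 5 ng of RNA per sample was amplified before hybridisation to an Affymetrix ATH1 array, which carries sets of short probes for Arabidopsis genes. The labels call the replicates biological but do not say which plants gave each, so the p-values reflect the spread among these arrays alone, which may be technical. The micropylar endosperm arrays were used as titled, although a description field speaks of whole seeds there.

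At this stage the embryo has formed its main organs and tissue layers and has begun to green. Its cells divide, make chloroplasts and start to fill with oil and protein. The endosperm around it feeds it and lies in 3 regions between the pole next to the embryo's root and the chalazal pole, where maternal supply enters. The seed coat is maternal tissue and makes flavonoid pigments in its inner layer. YABBY transcription factors such as YAB3 mark the outer, abaxial side of young organs, STOMAGEN is a peptide signal that promotes stomata, and GH3 enzymes join amino acids to auxin.

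Signals were scaled by the authors and had a trimmed mean between 492.2 and 493.8 on each of the 14 arrays, with array medians of 130.3 and 143.9 in the embryo proper and 106.5 to 183 elsewhere. The 2 embryo proper arrays correlated at 0.914 over the 15951 probe sets tested, and the replicate pairs of the other groups at 0.851 to 0.912. The ratio of the 3′ to the 5′ actin control probe sets was 36.8 on embryo proper array 1 and 11.1 on array 2, against 9.01 to 23.6 on the other 12 arrays. The part of that difference in the results was not tested, and values without array 1 are given where a result rests on it.

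The markers of the embryo proper were chosen with results of these data known, so their levels describe the arrays and do not check the label independently. YAB3 gave signals of 2331 and 2486 on the embryo proper arrays and at most 93.5 on any of the other 10. STOMAGEN gave 535.5 and 816.6, against at most 65.1. GH3.3 gave 703.4 and 793.7, against at most 168.4 on a chalazal seed coat array. In each of these genes both embryo proper arrays lay above all 10 others.

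Markers of neighbouring tissue were low in part. DFR, which reduces dihydroflavonols in pigment synthesis, gave 11.9 and 15.7 in the embryo proper against 5346 to 13577 on the 4 seed coat arrays. BAN, the anthocyanidin reductase of the seed coat's tannin layer, gave 18.5 and 2.44 against a highest array of 1999. The summed signal of the 6 tested genes of the seed coat list was nevertheless 8970 to 15120 in the embryo proper, where UGT78D1 alone, a flavonol rhamnosyltransferase, gave 8024 and 14112. That sum was 30390 to 39151 on the seed coat arrays and 1189 to 3822 on the endosperm arrays. The summed signal of the 8 tested genes of the endosperm list was 1322 to 2004 in the embryo proper, 11436 to 14976 in cellularized and 6280 to 8530 in micropylar endosperm. It was 793.2 to 928.6 in chalazal endosperm. Most of the sum in cellularized endosperm came from SWEET11 alone, so the sum does not describe the whole list. By calls, 2 of the 8 genes were lower in the embryo proper against micropylar, 2 against cellularized and 3 against chalazal endosperm. Against chalazal endosperm 2 were higher, and against the other 2 regions 0. Over all probe sets tested, 8.6% were lower against micropylar, 7.33% against cellularized and 17% against chalazal endosperm. The shares higher were 6.66%, 7.98% and 22.4% in that order. The part of carried-over tissue in the results was not tested.

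Against the mean of the other 5 compartments, 4537 of 15951 probe sets were called, 2406 higher (15.1% of those tested) and 2131 lower (13.4%) in the embryo proper. A call needed a Benjamini-Hochberg adjusted p below 0.05 in limma and a change of at least 2-fold on the scale of log2(signal + 16). The median log2 change was 1.90 among the higher calls, -1.93 among the lower calls and -0.012 over all probe sets tested. Changes of at least 16-fold were found for 90 higher and 108 lower calls. In bulk tissue, fewer cells of a type and less RNA per cell cannot be told apart. Without embryo proper array 1 the count was 2312 and without array 2 it was 2480, each leaving a single embryo array that is assumed to vary like the other groups. With micropylar endosperm left out of the contrast it was 4861.

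Separation of the arrays was more frequent among the rises. Both embryo proper arrays lay above all 10 others for 1404 of the 2406 higher calls (58.4%), and below all 10 for 788 of the 2131 lower calls (37.0%). Over all probe sets tested, 10.2% lay above and 5.78% below. Whole seeds, which contain the embryo, were above the mean of the other 5 compartments for 2048 of the higher calls (85.1%), for 947 of the lower calls (44.4%) and for 58.8% of all probe sets tested. The contrast subtracts the same mean, so these shares depend in part on how the calls were made and are no independent check. Genes with a symbol gave 214 higher and 154 lower calls among 1204 tested, and genes known by a locus code alone gave 1027 and 1036 among 7702.

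**Figure D1:**
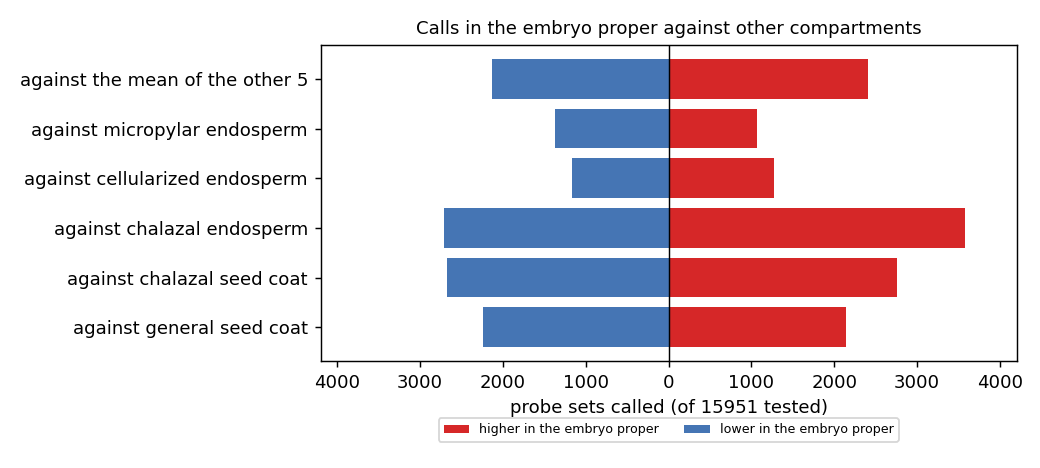
Number of probe sets called higher (right of 0) and lower (left of 0) in the embryo proper, of 15951 tested, against the mean of the other 5 compartments and against each of them. The counts were smallest against micropylar (2433) and cellularized endosperm (2442) and largest against chalazal endosperm (6294).

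The distance to the single compartments was uneven. The embryo proper differed from micropylar endosperm in 1062 higher (6.66%) and 1371 lower calls (8.6%), and from cellularized endosperm in 1273 higher (7.98%) and 1169 lower calls (7.33%). Against general seed coat there were 2142 higher (13.4%) and 2243 lower calls (14.1%). Against chalazal seed coat there were 2760 higher (17.3%) and 2672 lower calls (16.8%), and against chalazal endosperm 3580 higher (22.4%) and 2714 lower calls (17%). These comparisons share the embryo proper arrays. The balance of directions depended on the scaling. With all arrays scaled to equal medians there were 862 higher and 1447 lower calls against cellularized endosperm. Against chalazal endosperm there were 3149 and 3153, and against general seed coat 2460 and 1940. The more frequent direction thus turned for cellularized endosperm and general seed coat, and the excess of higher calls against chalazal endosperm was lost. The median log2 change of all probe sets moved from 0.07 to -0.16, from 0.08 to -0.12 and from -0.02 to 0.14 in these 3 comparisons. Without embryo proper array 1 the count fell to 1245 against micropylar endosperm, 1185 against cellularized endosperm and 2742 against general seed coat, and without array 2 to 1205, 1193 and 2840.

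Among the 2406 higher calls the compartment with the next highest mean was micropylar endosperm for 975 and cellularized endosperm for 633. It was chalazal endosperm for 299, general seed coat for 260 and chalazal seed coat for 239. Among the 2131 lower calls the compartment nearest to the embryo's low level was cellularized endosperm for 676 and micropylar endosperm for 575. As a description over the 15951 probe sets, group means of the embryo proper correlated at 0.782 with cellularized and 0.769 with micropylar endosperm, at 0.603 with general and 0.509 with chalazal seed coat, and at 0.478 with chalazal endosperm.

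The genes with symbols that rose furthest included developmental regulators, receptors and wall proteins. Among calls in which both embryo proper arrays lay above all 10 others, the 20 with the largest rise had log2 changes of 3.24 to 6.14, and 11 of them were also called against the single compartment next to the embryo in level. In 9 of the 20 a compartment mean was under 16, the constant added before the logarithm, so the size of those changes depends on it. Whole seeds lay above the mean of the other 5 compartments for 19 of the 20. The choice of these genes used the same mean, so this is no independent check. GH3.3 and EXPA15 each had a whole-seed array, at 1200 and 2095, above both embryo proper arrays.

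**Figure D2:**
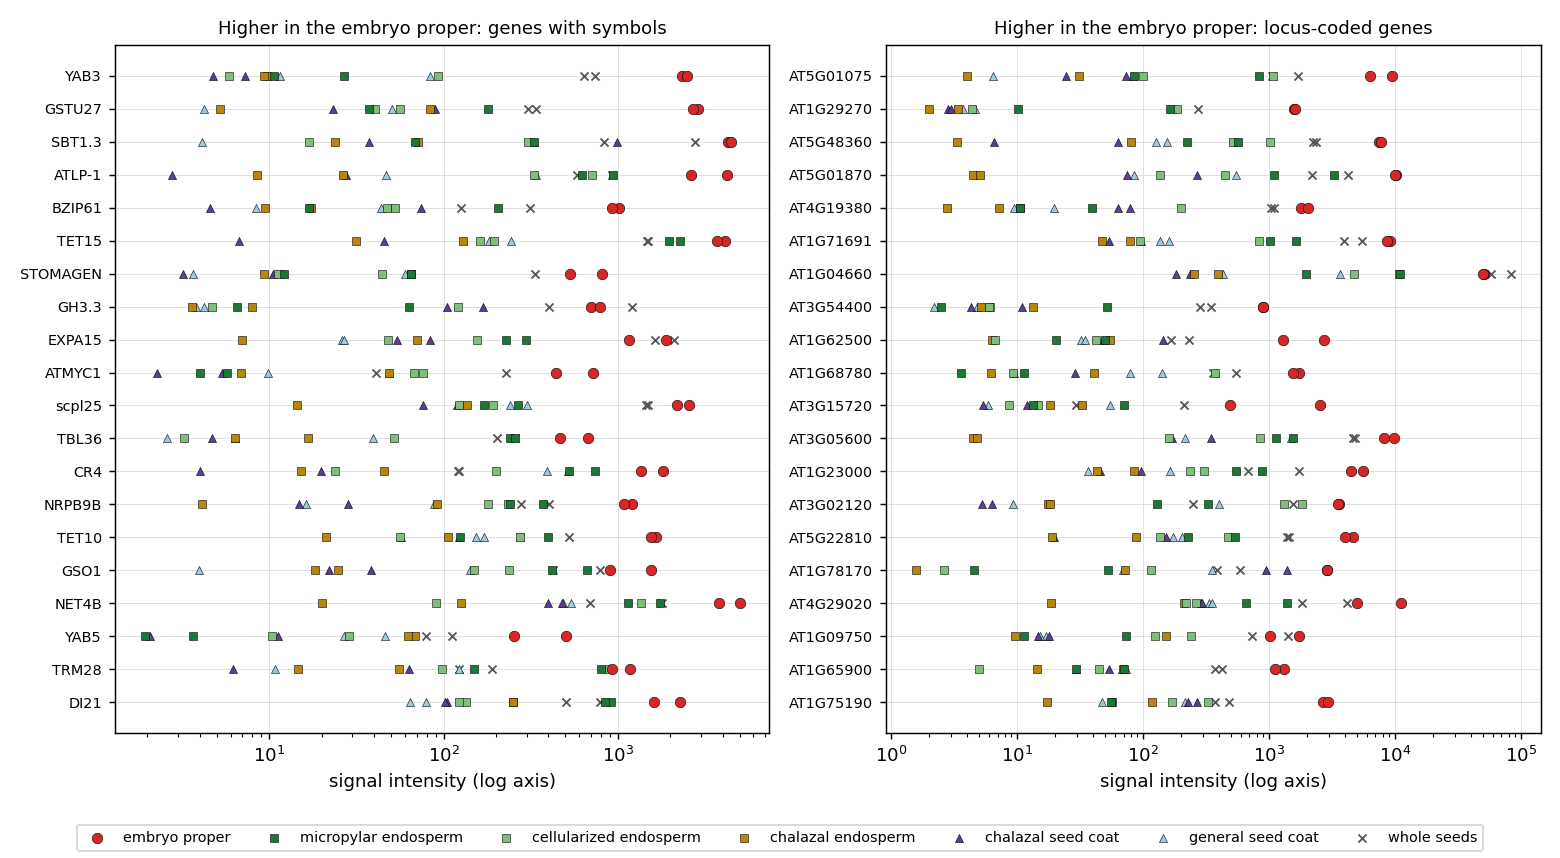
Signal of each array on a log axis for the 20 genes with symbols and the 20 locus-coded genes with the largest rise in the embryo proper. Red circles are the 2 embryo proper arrays, which lie to the right of all 10 arrays of the other compartments in every row, and crosses are whole seeds.

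YAB3 rose most, by 6.14 ± 0.64 (SE) on the log2 scale (adjusted p = 1.89e-06). The next highest mean was that of cellularized endosperm, at 49.7, and the difference from it was 5.63 (adjusted p = 0.000148). The smallest log2 difference was that from general seed coat (5.535, adjusted p = 7.19e-05). Whole seeds held 744.7 and 643.7, between the embryo and all other compartments. YAB5, another YABBY factor, gave 254.3 and 506.3 against at most 68.8 elsewhere, a change of 3.39 ± 0.58 (adjusted p = 0.000266). Both genes were called against each of the 5 compartments. PHV, a class III homeodomain leucine zipper factor of the inner, adaxial side, gave 756.5 and 266.6 and did not pass the test (1.11, adjusted p = 0.1). Its highest level was in cellularized endosperm, with a mean of 1125.

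STOMAGEN rose by 4.17 ± 0.84 (adjusted p = 0.00102) and was called against every compartment, with micropylar endosperm nearest at a mean of 38.6. Whole-seed levels of STOMAGEN were 11.5 and 333.4, so the 2 whole-seed arrays disagreed. The other factors of the stomatal lineage named on the array, SPCH, MUTE and FAMA, did not reach the signal filter. CR4, the receptor kinase ACR4 (CRINKLY4) of the epidermis, gave 1364 and 1827 against at most 742.5, a change of 3.65 ± 0.57 (adjusted p = 0.000108). GSO1, a receptor kinase needed for a continuous embryonic cuticle, gave 1547 and 904.3 against at most 669.2 (3.56 ± 0.61, adjusted p = 0.000274). For both receptors the micropylar endosperm stood next, with means of 633.8 and 544.6. The difference from micropylar endosperm did not pass the test for CR4 (1.32, adjusted p = 0.263) or GSO1 (1.13, adjusted p = 0.39). CR4 was not called against general seed coat either (1.77, adjusted p = 0.0815).

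Enzymes and wall proteins formed the next group. GSTU27, a tau-class glutathione transferase, gave 2873 and 2686 against at most 180.9 (5.57 ± 0.67, adjusted p = 8.39e-06). SBT1.3, a subtilisin-like protease, gave 4307 and 4479, but one chalazal seed coat array reached 994.3 while the other compartments' lowest array held 4.13 (5.26 ± 1.03, adjusted p = 0.000839). The serine carboxypeptidase-like gene scpl25 gave 2580 and 2181 against at most 300 (3.96 ± 0.50, adjusted p = 1.36e-05). EXPA15, an expansin that loosens cell walls, gave 1162 and 1894 against at most 297.2 (4.13 ± 0.54, adjusted p = 1.89e-05). Each of these 4 genes was called against all 5 compartments. ATLP-1, a thaumatin-like protein gene, gave 4256 and 2647, and TBL36, of a family that acetylates wall polysaccharides, gave 673.9 and 465.3. Neither passed against micropylar endosperm, where ATLP-1 was lower by a log2 difference of 2.11 (adjusted p = 0.0627) and TBL36 by 1.12 (adjusted p = 0.393).

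Regulators and cytoskeletal genes completed the set. BZIP61, a leucine zipper factor, gave 1019 and 927.6 against at most 206.1 (4.35 ± 0.72, adjusted p = 0.000186). ATMYC1, a basic helix-loop-helix factor, gave 718.4 and 441.1 against at most 75.8 (4.03 ± 0.67, adjusted p = 0.000191). The tetraspanin membrane protein genes differed in their distance from micropylar endosperm, the nearest compartment of both. TET10 gave 1661 and 1548 and was called against all 5 compartments, while TET15 gave 4135 and 3703 with 2124 as the mean of micropylar endosperm (0.88, adjusted p = 0.36). NRPB9B, a small RNA polymerase subunit also named NRPD9B and NRPE9B, rose by 3.64. NET4B, an actin-binding protein, and DI21 rose by 3.48 and 3.24. None of these 3 genes was called against micropylar endosperm. TRM28 rose by 3.31 ± 0.79 (adjusted p = 0.00394), and its call ended without embryo proper array 1 (3.14, adjusted p = 0.0734). It was not called against cellularized (1.72, adjusted p = 0.291) or micropylar endosperm (1.53, adjusted p = 0.363), and one cellularized endosperm array held 895.8 beside the 929.5 of embryo proper array 2.

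Of the locus-coded genes, which were tested in larger number (7702 against 1204 with symbols), the 20 with the largest rise had log2 changes of 4.44 to 6.31, and 18 of them were called against every one of the 5 compartments. The exceptions were AT3G02120, with cellularized endosperm next (1.19, adjusted p = 0.471), and AT1G78170, with chalazal seed coat next (1.31, adjusted p = 0.302). Whole seeds lay above the mean of the other 5 compartments for all 20, again with the mean by which the genes were chosen. In 8 of the 20 a compartment mean was under 16.

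Of these locus-coded rises, AT1G04660 had the brightest signal in the embryo proper, at 50550 and 49989, with 58226 and 83101 in whole seeds. Its highest other array held 10880, in micropylar endosperm, and it rose by 5.32 ± 0.58 (adjusted p = 2.91e-06). AT5G01075 rose furthest among the locus-coded genes, from at most 1075 elsewhere to 9532 and 6344 (6.31 ± 0.79, adjusted p = 1.28e-05). AT1G29270 gave 1574 and 1604 against at most 187.5, with a mean of 2.70 in chalazal endosperm (5.67 ± 0.77, adjusted p = 2.96e-05). In these 3 genes the embryo arrays stood far above every other compartment.

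AT5G01870 gave 10188 and 9957, while micropylar endosperm averaged 2206 and chalazal endosperm 4.79 (5.59 ± 0.59, adjusted p = 2.32e-06). AT3G05600 followed a like order, with 9783 and 8169 in the embryo proper, 1344 in micropylar and 4.63 in chalazal endosperm (5.01 ± 0.57, adjusted p = 4.34e-06). AT1G71691 gave 9188 and 8631 against a micropylar mean of 1329 (5.38 ± 0.52, adjusted p = 9.51e-07). All 3 passed against micropylar endosperm too, with differences of 2.39 (adjusted p = 0.0412), 2.74 (adjusted p = 0.0157) and 2.77 (adjusted p = 0.00892).

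Several locus-coded genes had low signals in the other 5 compartments. AT3G54400 gave 902 and 888.2 against at most 51.7, and whole seeds held 343.2 and 283.6 (5.22 ± 0.60, adjusted p = 5.64e-06). AT1G65900 gave 1323 and 1109 against at most 73.9, and whole seeds held 371.3 and 426.1 (4.45 ± 0.57, adjusted p = 1.7e-05). AT1G62500 gave 1294 and 2732 against at most 143.5 (5.21 ± 0.62, adjusted p = 7.21e-06). The replicates of AT3G15720 lay further apart, at 2545 and 492.1, yet both exceeded the highest other array of 70.6 (5.02 ± 0.75, adjusted p = 7.36e-05).

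By mean signal, the remaining locus-coded rises had an endosperm region next to the embryo. On the log2 scale a seed coat tissue was nearer for AT4G19380, AT1G68780 and AT1G75190. Their smallest differences were 4.47 (chalazal seed coat), 3.76 (general seed coat) and 3.43 (chalazal seed coat). AT5G48360 gave 7415 and 7765 with cellularized endosperm next at 770.4 (5.65 ± 0.56, adjusted p = 1.17e-06), and AT4G19380 gave 1785 and 2027 with cellularized endosperm next at 104.7. For AT1G23000, AT5G22810 and AT4G29020 the next compartment was micropylar endosperm, at means of 713.5, 381.8 and 1018. AT1G68780, AT1G09750 and AT1G75190 had cellularized endosperm next, at means of 189.4, 183.6 and 249. The 2 cellularized endosperm arrays of AT1G68780 disagreed, at 369.6 and 9.20, and AT1G75190 averaged 248.2 in chalazal seed coat. These 8 genes were all called against each compartment.

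Genes with the largest falls in the embryo proper peaked in different tissues, and TRM15 was equally high in chalazal (871.7) and general seed coat (871.3). Among calls in which both embryo arrays lay below all 10 others, the 12 genes with symbols and the largest fall changed by -5.56 to -3.17, and 10 of them were called against every compartment. DFR fell most (-5.56 ± 0.34, adjusted p = 3.62e-09), and its lowest other array held 71.3 in cellularized endosperm. UGT84B1, a glucosyltransferase that acts on auxin, gave 38.5 and 14.5 against 12894 in chalazal endosperm and 290 in chalazal seed coat, the lowest other mean (-4.98 ± 0.43, adjusted p = 2.54e-07). The fall of UGT84B1 was in the opposite direction to the rise of the auxin-conjugating GH3.3.

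Vacuolar processing enzymes are proteases that activate proteins in vacuoles. DELTA-VPE gave 54.8 and 26.8 in the embryo proper and at least 538.2 on every other array, with a mean of 7700 in general seed coat (-4.85 ± 0.46, adjusted p = 8.18e-07). ALPHA-VPE gave 42.4 and 45.7 against 2473 in micropylar endosperm (-3.33 ± 0.39, adjusted p = 6.48e-06). The difference of ALPHA-VPE from chalazal seed coat, where its mean was 98.2, did not pass the test (-0.93, adjusted p = 0.169). The fall of DELTA-VPE passed against all 5 compartments and that of ALPHA-VPE against 4.

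**Figure D3:**
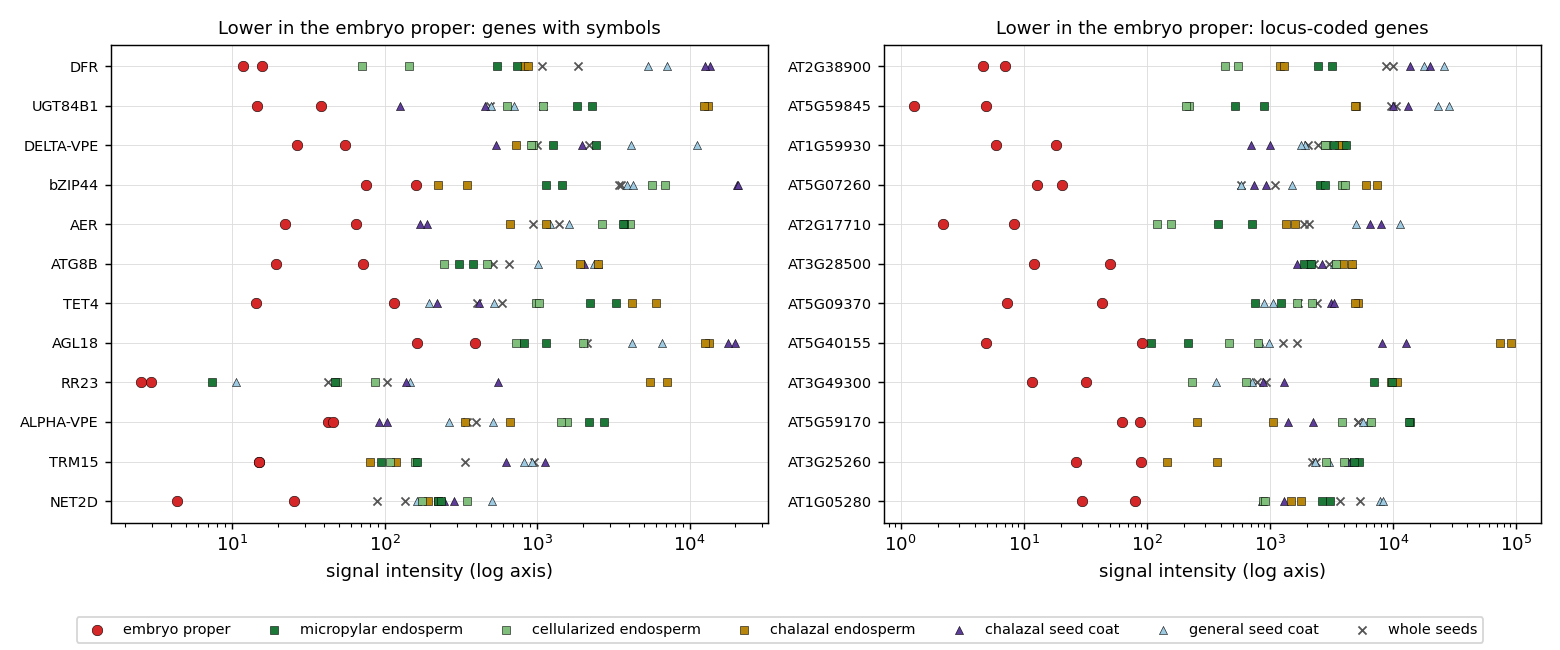
Signal of each array on a log axis for the 12 genes with symbols and the 12 locus-coded genes with the largest fall in the embryo proper. The 2 embryo proper arrays (red circles) lie to the left of all 10 arrays of the other compartments in every row, and for RR23 and ALPHA-VPE the nearest compartment lies close to them.

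Regulators fell as well. The factor bZIP44 gave 159.8 and 75.5 against 20629 in chalazal seed coat (-4.51 ± 0.28, adjusted p = 3.76e-09). AGL18, a MADS-box factor, gave 163.9 and 393.3 against 18919 in the same tissue (-4.01 ± 0.34, adjusted p = 1.88e-07). RR23, named as a response regulator, gave 2.93 and 2.54 against 6347 in chalazal endosperm (-3.47 ± 0.68, adjusted p = 0.000811), but one micropylar array was at 7.43 and that difference did not pass (-1.04, adjusted p = 0.487). RR23 was not called against cellularized endosperm (-2.12, adjusted p = 0.114) or general seed coat (-1.81, adjusted p = 0.134) either, which leaves 2 of 5 compartments. The peaks of these regulators thus lay in chalazal tissue. The factor bZIP44 was nevertheless low in chalazal endosperm, with a mean of 287 and a smaller difference from it (-1.225, adjusted p = 0.0109). The embryo was not the sole low compartment for RR23.

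Other falls with symbols spanned metabolism, membranes and the cytoskeleton. AER, an alkenal reductase, gave 22.2 and 64.6 against 3690 in micropylar endosperm (-4.49 ± 0.36, adjusted p = 8.34e-08). ATG8B, a ubiquitin-like protein of autophagosome membranes, gave 19.4 and 72.5 against 2279 in chalazal seed coat (-4.16 ± 0.41, adjusted p = 1.17e-06). TET4, a tetraspanin, gave 14.3 and 115.1 against 5143 in chalazal endosperm (-4.11 ± 0.48, adjusted p = 5.49e-06). TRM15 gave 15.1 on both embryo arrays against at least 80.8 elsewhere, and the actin-binding NET2D gave 25.6 and 4.36 against at least 164.2. In 4 of the 12 genes a compartment mean was under 16.

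The 12 locus-coded genes with the largest fall changed by -7.39 to -4.96, and all 12 were called against every compartment. In 4 of them the embryo proper's own mean was under 16, so the size of those changes depends on the constant added (AT2G38900, AT5G59845, AT1G59930 and AT2G17710). AT2G38900 gave 4.70 and 7.10 in the embryo proper, 13896 to 26293 on the seed coat arrays and at least 431.3 on every other array (-7.39 ± 0.26, adjusted p = 3.56e-12). AT5G59845 gave 1.29 and 4.94 against 26028 in general seed coat (-7.30 ± 0.27, adjusted p = 3.89e-12). AT5G40155 gave 92.4 and 4.95, while chalazal endosperm averaged 82659 and one micropylar array held 108.7 (-5.67 ± 0.44, adjusted p = 6.56e-08). The first pair was highest in the seed coat and AT5G40155 in chalazal endosperm.

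A further set was high everywhere but in the embryo. AT1G59930 gave 18.4 and 5.93 against at least 710.3 (-6.40 ± 0.28, adjusted p = 7.75e-11), and AT3G28500 gave 50.6 and 12.05 against at least 1650 (-6.06 ± 0.33, adjusted p = 9.87e-10). AT5G07260 gave 12.7 and 20.4 against at least 585.4, AT5G09370 gave 43.7 and 7.26 against at least 758.3, and AT1G05280 gave 29.7 and 80.9 against at least 867.7. In all 5 genes each array of each other compartment was over 500, and both embryo arrays were under 100. AT3G25260, listed by RefSeq as NRT1/ PTR family 4.1, gave 26.5 and 89.6 against 5097 in micropylar and 258 in chalazal endosperm (-5.04 ± 0.35, adjusted p = 1.86e-08). AT2G17710, AT3G49300 and AT5G59170 fell by 6.12, 5.64 and 5.19 on the log2 scale and peaked in general seed coat, chalazal endosperm and micropylar endosperm in that order.

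Gene lists of seed and embryo pathways were counted next, with 15.1% higher and 13.4% lower over all probe sets as the background. For counts against single compartments the background was 6.66% higher and 8.6% lower (micropylar endosperm) and 7.98% and 7.33% (cellularized endosperm). It was 22.4% and 17% for chalazal endosperm, 17.3% and 16.8% for chalazal seed coat, and 13.4% and 14.1% for general seed coat. Many symbols of these lists are not named by the table of probe sets used here, so each list is described by the members tested. The polarity list had 2 of 3 tested members higher (YAB3 and YAB5) and a median change of 3.39. The list of shoot meristem and cotyledon boundary genes had no tested member, and neither did that of WOX and AINTEGUMENTA-like factors.

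In the root pole and vascular precursor list 3 of 4 tested members rose, with a median change of 2.23. BBM, an AP2 factor that can induce embryos, gave 392.8 and 376.7 against at most 171.1 (2.64 ± 0.62, adjusted p = 0.00368). LHW, a partner of vascular regulators, gave 1559 and 1936, but chalazal seed coat was as high with a mean of 2189 (2.38 ± 0.41, adjusted p = 0.000299; against that tissue -0.33, adjusted p = 0.671). CLE41, a peptide that keeps vascular stem cells undifferentiated, gave 189.2 and 147.7 against at most 124.8 (2.09 ± 0.72, adjusted p = 0.0355). JKD, a zinc finger factor of root ground tissue, gave 127 and 206.4 against at most 92.4 and did not pass the test (1.63, adjusted p = 0.0529). OPS, a phloem regulator of the vascular list, gave 876.6 and 524.9 against at most 352.6 (2.43 ± 0.70, adjusted p = 0.0128).

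These calls rested on few arrays. With embryo proper array 1 left out the adjusted p was 0.0609 for BBM, 0.23 for CLE41 and 0.176 for OPS, and without array 2 it was 0.0536, 0.156 and 0.0647. CLE41 also lost its call without cellularized endosperm array 1 (adjusted p = 0.0512) or chalazal endosperm array 1 (adjusted p = 0.0531), and JKD gained one without chalazal endosperm array 2 (adjusted p = 0.0229) or chalazal seed coat array 1 (adjusted p = 0.0429). Of the 3 tested members of the vascular list, OPS and CLE41 were higher and SWEET10, a sugar exporter, was lower at 47.0 and 15.5 against 14508 in chalazal seed coat (-1.92 ± 0.71, adjusted p = 0.0468). SWEET10 was lower still in cellularized endosperm (mean 5.01), and its adjusted p was 0.109 without embryo proper array 1 and 0.354 without array 2. Its call also ended without any of 9 other single arrays (adjusted p = 0.0541 to 0.0686).

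Auxin genes moved in both directions. Of 9 tested members 4 rose and 1 fell, with a median change of 1.46. IAA18 was not called, but was called higher without any 1 of 3 arrays of other compartments (adjusted p = 0.0451 to 0.0499) and with a pseudocount of 64 (1.07, adjusted p = 0.0316). Besides GH3.3, WES1 (GH3.5), another auxin-conjugating enzyme, gave 846.1 and 244.6 against at most 207.4 (3.06 ± 0.59, adjusted p = 0.000742). IAA30, an Aux/IAA repressor of the auxin response, gave 360.2 and 600.9 against at most 92.2 and was called against each compartment (2.85 ± 0.55, adjusted p = 0.000699). GH3.17 gave 84.0 and 187.8, overlapping a chalazal seed coat array at 86.2 (2.00, adjusted p = 0.0368). GH3.9 gave 55.3 and 53.2 against 3041 in chalazal seed coat, yet it was at 4.23 in cellularized endosperm (-1.65, adjusted p = 0.0493). Thus 3 GH3 genes were higher and 1 was lower. When embryo proper array 1 was left out the calls of WES1 (adjusted p = 0.0722), GH3.17 (adjusted p = 0.0961) and GH3.9 (adjusted p = 0.211) ended, and without array 2 that of GH3.9 (adjusted p = 0.221). GH3.17 also lost its call without cellularized endosperm array 2, chalazal endosperm array 1, general seed coat array 1 or micropylar endosperm array 1 (adjusted p = 0.0504 to 0.0591), and GH3.9 without any of 8 single arrays of other compartments (adjusted p = 0.0539 to 0.0753).

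**Figure D4:**
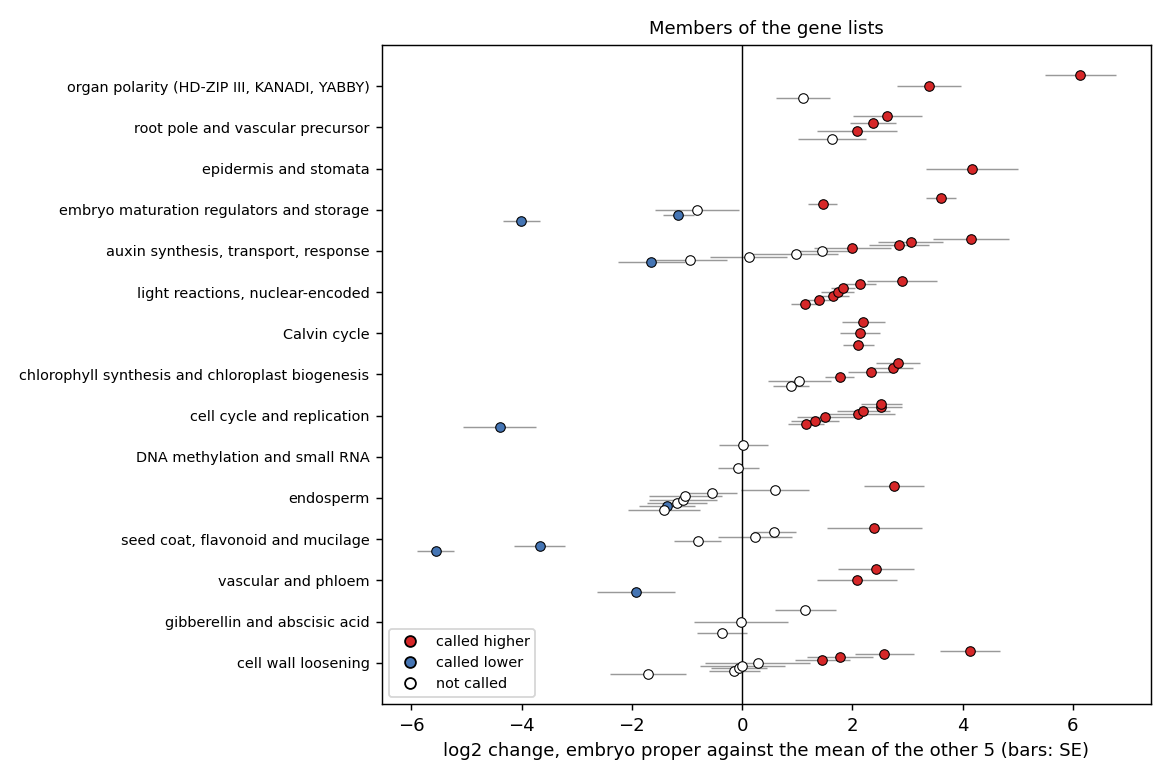
Log2 change of each tested member of the gene lists, embryo proper against the mean of the other 5 compartments, with SE as bars. All 10 tested members of the light reaction and Calvin cycle lists lie to the right of 0 as called higher, while the maturation, seed coat and endosperm lists hold members on both sides.

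Photosynthesis genes were higher than the mean of the other compartments, and few of them were called higher against micropylar or cellularized endosperm. All 7 tested nuclear genes of the light reactions rose (median 1.73), as did all 3 of the Calvin cycle (median 2.14) and 4 of 6 of chlorophyll synthesis and chloroplast biogenesis (median 2.06). LHCB4.1, an antenna protein of photosystem II, gave 9498 and 9501 in the embryo proper, a mean of 12087 in micropylar, 5811 in cellularized and 674.9 in chalazal endosperm, 609.1 in chalazal and 4587 in general seed coat (1.83 ± 0.22, adjusted p = 8.27e-06). RCA, which activates Rubisco, gave 1475 and 3057 against 2069 in micropylar and 123.9 in chalazal endosperm (2.14 ± 0.36, adjusted p = 0.000239). SBPASE, a Calvin cycle phosphatase, gave 5985 and 6135 against 5918 and 256.7 in the same tissues (2.20 ± 0.39, adjusted p = 0.000362).

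Against micropylar endosperm none of the 7 light reaction genes was called higher and 1 was called lower, and none of the 3 Calvin cycle genes was called. The lower one was PSBY, a small photosystem II protein, with 5099 and 4837 against 10518 (-1.06, adjusted p = 0.0276). Against cellularized endosperm 2 of the 7 and 1 of the 3 were called higher, and against both chalazal tissues all 7 and all 3 were. Against general seed coat 3 of the 7 light reaction genes were called higher. Some of these counts moved with the scaling of the arrays. With equal medians 0 of the 7 were higher against cellularized endosperm, 5 against general seed coat and none lower against micropylar endosperm. With quantile normalization they were 1 against cellularized endosperm and 0 against general seed coat, with 1 again lower against micropylar endosperm. The rise of PSBY over the mean of the other 5 (1.13 ± 0.24, adjusted p = 0.00175) fell under 2-fold when chalazal endosperm was left out (0.66, adjusted p = 0.0493).

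Of the 6 genes of chlorophyll synthesis and chloroplast biogenesis 1 was called higher against micropylar and 1 against cellularized endosperm, 4 against general seed coat, 5 against chalazal seed coat and 6 against chalazal endosperm. CHLM, the methyltransferase of magnesium protoporphyrin, gave 3042 and 2773 against 2028 in micropylar and 21.8 in chalazal endosperm (2.84 ± 0.40, adjusted p = 4.09e-05). PORB, which reduces protochlorophyllide in the light, gave 3294 and 3660 against 3186 in micropylar endosperm (2.74 ± 0.37, adjusted p = 2.56e-05). HEMB1, an early enzyme of the tetrapyrrole pathway, gave 7738 and 7073 against at most 4297 (1.77 ± 0.27, adjusted p = 8.99e-05). HEMB1 was called against 4 of the 5 compartments and CHLI2, a magnesium chelatase subunit, also against 4 (2.35 ± 0.42, adjusted p = 0.000362). GSA1 (0.89) and FTSZ2-1 (1.04, adjusted p = 0.182) were not called, though FTSZ2-1 was without chalazal seed coat array 2 (1.40, adjusted p = 0.00564).

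**Figure D5:**
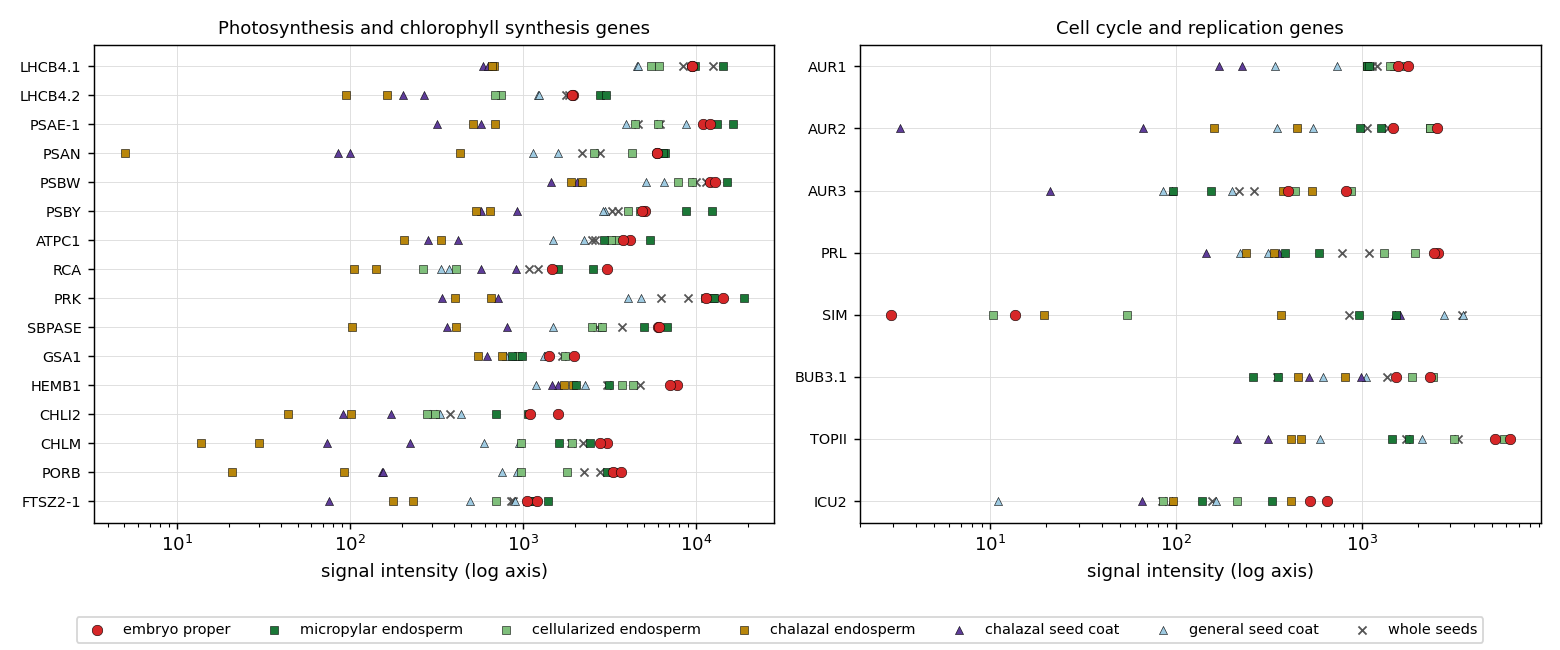
Signal of each array on a log axis for genes of photosynthesis and chlorophyll synthesis (left) and of the cell cycle (right). Embryo proper arrays (red circles) overlap micropylar endosperm arrays in most of the left rows and cellularized endosperm arrays in several right rows, and SIM is the gene with the embryo at the lower end.

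Cell cycle genes rose with 1 exception. Of 8 tested members 7 were higher and 1 lower (median 1.81). PRL, the MCM7 subunit of the replicative helicase, gave 2568 and 2457 against at most 1929 (2.53 ± 0.38, adjusted p = 6.88e-05), and TOPII, a topoisomerase, gave 5207 and 6246 against a highest array of 5806 in cellularized endosperm (2.52 ± 0.39, adjusted p = 9.48e-05). ICU2, the catalytic subunit of DNA polymerase alpha, gave 649.6 and 526.1 against at most 418.2 (2.11 ± 0.67, adjusted p = 0.0224). SIM, an inhibitor of cyclin-dependent kinases linked to endoreduplication, gave 2.93 and 13.7 against means of 3136 in general seed coat and 32.6 in cellularized endosperm (-4.39 ± 0.66, adjusted p = 7.77e-05). SIM was called lower against every compartment but cellularized endosperm (-0.87, adjusted p = 0.566).

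The mitotic kinases AUR1, AUR2 and AUR3 and the checkpoint gene BUB3.1 rose by 1.16, 2.20, 1.51 and 1.32 on the log2 scale. For all 4 the next compartment was cellularized endosperm, and none of the 8 cell cycle genes was called in either direction against it. Against micropylar endosperm 4 were higher, and against each seed coat tissue 6 were. On leaving out embryo proper array 1 the adjusted p of ICU2, AUR1, AUR3 and BUB3.1 was 0.184, 0.132, 0.0661 and 0.0836, and without array 2 it was 0.12, 0.0771, 0.374 and 0.28. AUR2 was no longer called without array 2 (adjusted p = 0.0751), nor was AUR3 without cellularized endosperm array 1 (adjusted p = 0.0515) or micropylar endosperm array 1 (adjusted p = 0.0501).

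Maturation and storage genes were divided. OLEO3, an oleosin of oil bodies, gave 16223 and 16211 in the embryo proper and a mean of 17155 in micropylar endosperm, against 21.6 in chalazal seed coat (3.61 ± 0.28, adjusted p = 5.7e-08). EEL, a leucine zipper factor of late embryogenesis, gave 4710 and 7183 against 7464 in cellularized endosperm and 486.2 in chalazal seed coat (1.46 ± 0.27, adjusted p = 0.000484). Neither differed by the test from its nearest endosperm (-0.07, adjusted p = 0.926 for OLEO3 and -0.35, adjusted p = 0.572 for EEL). AGL18 and BZIP53 were lower, BZIP53 with 932.4 and 1068 against at least 1148 (-1.16 ± 0.28, adjusted p = 0.00429), and this call ended without embryo proper array 1 (adjusted p = 0.0782). The list thus had 2 of 5 tested members higher and 2 lower, with a median of -0.82 that is the value of the uncalled dehydrin LEA.

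Wall loosening genes had 4 of 9 tested members higher and none lower (median 0.28). EXPB3, a beta-expansin, gave 538.4 and 630.8 against at most 178.2 (2.58 ± 0.54, adjusted p = 0.00136). XTH19, which cuts and rejoins xyloglucan, gave 139.9 and 195.6 against at most 89.96 (1.78 ± 0.60, adjusted p = 0.0307). EXPB1 gave 274 and 821.6 and was exceeded by micropylar endosperm at 1131 (1.46 ± 0.50, adjusted p = 0.0342). The call of XTH19 ended without embryo proper array 1 (adjusted p = 0.127) and without array 2 (adjusted p = 0.24), and that of EXPB1 without array 2 (0.69, adjusted p = 0.518), cellularized endosperm array 1 (adjusted p = 0.0502) or micropylar endosperm array 2 (adjusted p = 0.0538). Against micropylar endosperm 2 of the 9 were higher and 3 lower, beside 6.66% and 8.6% over all probe sets. XTH32 was not called (-1.70, adjusted p = 0.0687), but was called lower without cellularized endosperm array 1 (-1.94, adjusted p = 0.0278) and with a pseudocount of 64 (-1.04, adjusted p = 0.0373).

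Lists of the surrounding tissues were mixed. In the seed coat list DFR and BAN were lower (BAN by -3.67 ± 0.46, adjusted p = 1.32e-05) and UGT78D1 was higher (2.40 ± 0.86, adjusted p = 0.0414), of 6 tested. UGT78D1 was higher still in general seed coat, with a mean of 29800, and its call ended without embryo proper array 1 (adjusted p = 0.135) and without array 2 (adjusted p = 0.294), as well as without any of 9 other single arrays (adjusted p = 0.052 to 0.0601). In the endosperm list 1 of 8 rose and 1 fell (median -1.05). SHT, not called as reported, was lower with chalazal endosperm left out (-1.62, adjusted p = 0.0243) and with a pseudocount of 64 (-1.07, adjusted p = 0.0398). AtVEX1, a sugar transporter gene also called SWEET5, gave 1109 and 545.5 against a mean of 1418 in micropylar endosperm (2.75 ± 0.54, adjusted p = 0.00088, and adjusted p = 0.0562 without embryo proper array 1). SWEET11, a sucrose exporter, gave 435.7 and 296.5 against 11210 in cellularized endosperm (-1.36 ± 0.51, adjusted p = 0.0491), and its adjusted p was 0.136 without embryo proper array 1 and 0.323 without array 2. Leaving out any of 7 other single arrays ended its call too (adjusted p = 0.0555 to 0.0799). None of the 2 tested genes of DNA methylation and small RNA and none of the 3 of gibberellin and abscisic acid was called in this comparison.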

How the data were processed

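The authors deposited 1 signal intensity for each probe set and array, on a linear scale. Per the submitters' processing notes GCOS was used, with no version given. Over the 22746 probe sets that are not controls, the mean without the lowest and highest 2% was nearly equal on all arrays. The file holds no detection calls, so signals near 16 or lower are not known to differ from background. Arrays give no read depth, and precision is limited by having 2 arrays a group.

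Signals were tested on the scale of log2(signal + 16). Tested were 15951 probe sets at or above the array median on at least 2 arrays. limma 3.58.1 in R 4.3.3 was fitted with 1 mean per group over all 14 arrays (7 groups, 7 residual degrees of freedom) and a variance trend. Tests are two-sided, with Benjamini-Hochberg adjustment over all probe sets tested. The fit was tested on simulated data with known changes in bright probe sets only. The table of probe sets names several genes for 503, none for 8794 and 1 gene for 13513. Of the latter, 1580 have a symbol and 11933 a locus code only, and 13436 matched the RefSeq gene table (assembly TAIR10.1). No positions or sequences are given, since the files' build is not given in the sources used here.

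Named genes were the calls with both embryo arrays beyond the other 10: the 20 largest rises and 12 largest falls among genes with symbols, and as many among locus-coded genes, plus members of the gene lists. Where a gene has several probe sets, the brightest over all arrays was used. The members and lists were chosen with earlier results of these data known. One list symbol, FDH, matched formate dehydrogenase, not the intended gene, and was dropped after its value was seen. Alternatives changed the pseudocount, scaling, filter, variance trend, weights of the compartments, a replicate block and the arrays or compartments included.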

Additional observations from a re-analysis of the deposited data

How the results depend on the processing

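With both embryo proper arrays kept, the 24 alternatives gave 3848 to 4861 calls against 4537 as reported, and the median change of all probe sets moved between -0.068 and 0.032. Leaving out embryo proper array 1 or 2, the calls were 2312 and 2480 (1145 and 1269 higher, 1167 and 1211 lower), of which 2207 and 2387 were shared with the reported calls. Against micropylar endosperm these fits gave 1205 to 1245 calls, against cellularized endosperm 1185 to 1193 and against general seed coat 2742 to 2840. Replicate numbers are shared between groups, but deviations of same-numbered arrays correlated at -0.111 to 0.146 over 21 pairs of groups, and a replicate block gave 4515 calls (2404 higher, 2111 lower). Of 1657 recomputed values for the 64 genes named by the rule, 1656 kept their direction and side of the threshold, the exception being TRM28. Those genes were chosen for the size and separation of their changes in these same data, so this stability largely follows from the choice. Of 76 list members, 48 were called, 19 lost the call under some alternative, 5 gained it, and 10 uncalled ones, all under 2-fold as reported, changed sign in 42 of 1921 recomputed values. With pseudocount 64 CYP78A9 gave -0.087, EXPA9 -0.095 and SE -0.001, and with pseudocount 1 EXPA20 gave 0.053 and GID1C 0.139. With equal medians SE gave -0.015. With micropylar endosperm left out CYP78A9 gave -0.25, DME 0.30, EXPA20 0.50, EXPA4 0.92 and SE -0.007. With chalazal endosperm left out EXPA9 gave -0.28, GID1C 0.054 and YUC2 -0.104, and with endosperm and seed coat of equal weight EXPA4 gave 0.03. Leaving out 1 array in turn, the change ran from -0.030 to 0.512 for CYP78A9, -0.185 to 0.046 for DME, -0.192 to 0.069 for EXPA20, -0.862 to 0.580 for EXPA4 and -1.257 to 1.271 for EXPA9. It ran from -1.225 to 1.787 for EXPB5, -0.505 to 0.466 for GID1C, -2.127 to 0.235 for IAA31, -0.188 to 0.228 for SE and -0.463 to 0.700 for YUC2. In the same fits the calls ran from 2312 to 4619, the higher ones from 1145 to 2493 and the lower ones from 1167 to 2151. The cause was not tested.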

Other observations

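Plastid-encoded genes were read on the array beside the nuclear ones. Of 69 tested, 20 were called higher and none lower in the embryo proper against the mean of the other 5 compartments (limma, adjusted p below 0.05 and at least 2-fold), with a median log2 change of 0.62. Over all probe sets tested 15.1% were called higher and 13.4% lower. Genes of plastid ribosomal proteins made up 11 of these calls, of 15 tested (median 1.19), and genes of photosynthesis and of the ndh complex 5 of 45 (median 0.32), the latter no more often than all probe sets. Of the 4 rpo genes of the plastid RNA polymerase 3 were called, rpoC1 at 2.03 ± 0.27 (SE, adjusted p = 2.2e-05), rpoB at 1.88 ± 0.27 (adjusted p = 4.3e-05) and rpoC2 at 1.60 ± 0.24 (adjusted p = 7.8e-05). The change of rpoA was under 2-fold (0.79, adjusted p = 0.0295). For rpoC1 the mean signal was 11079 in the embryo proper, 8328 in micropylar endosperm and 1374 in chalazal seed coat. Against micropylar endosperm none of the 69 was higher and 17 were lower, 16 of them in the photosynthesis and ndh group, beside 6.66% higher and 8.6% lower over all probe sets.

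Families sharing a symbol stem were counted after the data were seen, so their choice is not independent of the values. Of 8 tested autophagy genes with the stem ATG, 6 were lower and none higher: ATG8B, ATG8C, ATG8E, ATG8F, ATG8H and ATG3. Over all probe sets 13.4% were lower. ATG8F gave 2135 and 2448 in the embryo proper against means of 16699 in chalazal seed coat and 2999 in cellularized endosperm (-1.72 ± 0.20, adjusted p = 4.86e-06). Low levels were in part shared with endosperm. ATG8E averaged 188.8 in the embryo proper, 201.2 in micropylar and 199.1 in cellularized endosperm, and ATG8H averaged 24.1 against 40.3 in cellularized endosperm. ATG8B (45.9 against 342.1 and 357), ATG8C (612.4 against 2344 and 1455) and ATG3 (913.8 against 2422 and 2246) stood further below micropylar and cellularized endosperm. In the fit without embryo proper array 2 the calls of ATG3 (adjusted p = 0.0875), ATG8C (adjusted p = 0.0892), ATG8E (adjusted p = 0.231) and ATG8H (adjusted p = 0.112) ended. Of 11 tested IQD genes, which bind calmodulin, 5 were higher and 1 lower, beside 15.1% and 13.4% over all probe sets. Calls of IQD31 and iqd21 ended without either embryo proper array (adjusted p = 0.0801 to 0.145), and those of iqd32 (adjusted p = 0.285) and IQD28 (adjusted p = 0.139) without array 2. The change of iqd32, 1.33 as reported, was 0.32 (adjusted p = 0.5) with chalazal endosperm left out, where its mean was 38.5 against 2332 in the embryo proper and 2688 in cellularized endosperm. IQD22 gave 283.2 and 289.3 against at most 119.2 (3.02 ± 0.63, adjusted p = 0.00141), and IQD26 gave 565.9 and 729 against at most 206.1 (2.62 ± 0.50, adjusted p = 0.0007).

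With limits also chosen after the data were seen, 12 probe sets were at or above 500 on both embryo proper arrays and under 100 on all 10 others. The 5 with a gene name were YAB3, STOMAGEN, AT1G65900, AT3G54400 and AT5G48900. Whole seeds held 7.27 to 55.4% of the embryo's mean signal at these probe sets, with a median of 30.8%. The opposite pattern, under 100 in the embryo and at least 500 on the 10 others, was found for 10 probe sets, among them AT5G57480 (59.7 and 63.8 in the embryo) and AT4G18580 (71.0 and 68.2).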
